A study of Mus musculus with 24 samples.

Results

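The genes described here are 36 mouse genes of the ATF4 and CHOP stress response, followed through tumours treated with an inhibitor of the IRE1α ribonuclease, with docetaxel or with both. They were chosen by name as regulators, feedback genes, amino acid enzymes, amino acid transporters, secreted or surface proteins and tRNA synthetases of the pathway. The choice was made with earlier results of these data known. All 36 were found among the 53465 rows of the gene table. A gene was tested where its counts passed a filter on low values, which 35 of the 36 did, and the remaining one, Fgf21, is given by its counts.

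The tumours were of the p53 knockout, triple-negative mouse breast cancer model 2153L, 1 transplantable line, so every group lacks p53. Fragments were grown in the cleared mammary fat pads of female BALB/c mice aged 6 to 8 weeks, and treatment began at a tumour volume of about 100 mm3. The 4 treatments, given to 3 tumours each, were a combination of ORIN1001 and docetaxel, ORIN1001 alone (an IRE1α ribonuclease inhibitor, 150 mg/kg daily by oral gavage), docetaxel alone (a taxane that stabilises microtubules, 10 mg/kg weekly into the peritoneum) and vehicle, and mice on a single drug also received the vehicle of the other. Every tumour gave a J2 library, made from RNA pulled down with the J2 antibody to double-stranded RNA, and an input library of the RNA before pull-down, 24 libraries in all.

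Cells answer misfolded protein in the endoplasmic reticulum through the sensors IRE1α, PERK and ATF6. PERK, and with it the kinases GCN2, HRI and PKR, phosphorylates the initiation factor eIF2α, which slows translation in general while it favours the Atf4 mRNA, a step called the integrated stress response. ATF4, with its partners of the C/EBP family, then switches on genes for amino acid synthesis, amino acid uptake and tRNA charging, and it induces Ddit3, which encodes CHOP, a factor tied to cell death under lasting stress. Since ATF4 is controlled largely at translation, its mRNA level is only part of its activity, and its target genes are the usual readout.

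ATF4 and C/EBP proteins bind together at the C/EBP-ATF response element, so promoter stretches that hold its letters are shown for some of the genes described below. The motif searched was TGATGNAAN on either strand, which reads NTTNCATCA on the other strand, over windows of 300 bases, from 250 before to 50 after a start listed in the promoter table used here (from RefSeq, build GRCm38.p6, also called mm10). A listed start need not be the outer end of the gene, and those of Slc7a11, Vldlr and Aars with a match lie inside the full extent of the gene. The table used matched 31 of the 36 genes. It was present in 12 of their 35 windows (34.3%), against 1299 of 32851 windows of all genes (3.95%). The 12 genes were Aars, Asns, Atf3, Chac1, Fgf21, Gars, Nupr1, Pycr1, Slc1a4, Slc7a11, Trib3 and Vldlr. Each stretch below runs 5′ to 3′ along the gene's own strand with the motif in capitals, and Slc7a11 has 2 matches that lie next to each other. They lie at chr1:191183426-191183454 (Atf3, minus strand), chr2:152344029-152344057 (Trib3, minus), chr2:119351038-119351066 (Chac1, plus), chr6:7693214-7693242 (Asns, minus), chr3:50443661-50443689 and chr3:50443643-50443671 (Slc7a11, minus), chr7:126625563-126625591 (Nupr1, minus) and chr19:27216809-27216837 (Vldlr, plus). A match is a description of letters and was not tested for binding.
Atf3: ccttctcgcaCTTGCATCAccaagtccgc
Trib3: ttagctcaggTTTACATCAgccgggcggg
Chac1: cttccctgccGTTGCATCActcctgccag
Asns: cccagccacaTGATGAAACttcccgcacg
Slc7a11, upstream match: ctcatgtggcTGATGCAAAcctggagaat
Slc7a11, downstream match: acctggagaaTTTGCATCAtcatgcagcc
Nupr1: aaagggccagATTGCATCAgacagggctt
Vldlr: agcagcaataGTTGCATCAgcgctcctag

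Depth and content differed between libraries in ways that touch these genes. Input libraries held 11.9 to 15.7 M (mega) gene counts in combination tumours, 25.4 to 45 M with ORIN1001, 3.27 to 63.3 M with docetaxel and 28.2 to 34.8 M with vehicle. The shallowest was docetaxel replicate 3, with 68% of its counts at loci of ribosomal RNA where the 11 others had 0.947 to 3.56%. In it 3 counts are worth 3.48 CPM, against 0.0401 to 0.189 CPM in the others. CPM are counts per 1 M of a library size adjusted by TMM scaling over the 24 libraries, not of the raw counts. J2 libraries held 2.54 to 11 M counts in combination tumours and 6.69 to 18.7 M in the rest. Ribosomal RNA loci held 22.9 to 57.2% of J2 counts in combination tumours, 1.44 to 3.46% with ORIN1001, 1.33 to 16% with docetaxel and 4.24 to 6.32% with vehicle. In J2, 3 counts are worth 1.6, 1.32 and 0.3 CPM in combination replicates 1, 2 and 3, and 0.153 to 0.412 CPM in the other treatments. All 10 epithelial markers were detected in the inputs. Their summed levels were 1838 to 2509 CPM in combination tumours, 2151 to 2256 CPM with ORIN1001, 2017 to 3047 CPM with docetaxel and 2314 to 2831 CPM with vehicle. Single markers went both ways in combination against vehicle inputs. Epcam had 284 to 562 against 686 to 1060 CPM, Krt19 0.186 to 0.692 against 1.19 to 227 CPM, and Cldn4 287 to 326 against 123 to 166 CPM. The samples are bulk tumours, in which fewer cells of a type and less RNA per cell cannot be told apart.

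Few input levels of the response passed the test between treatments, at about the rate of all genes. In combination tumours against vehicle, 2 of the 35 genes tested passed an adjusted p of 0.05 (edgeR's quasi-likelihood test, adjusted over all 17768 genes), against 4.77% of all genes (2.8% higher and 1.98% lower). Phgdh rose, to 2.68 times the vehicle level, and Cebpb fell, to 0.642 times it. The median log2 fold change of the 35 genes was -0.06, against -0.03 over all genes, with 15 genes above 0 and 20 below. ORIN1001 alone and docetaxel alone gave no call against vehicle among these genes or any others (0%), with medians of -0.05 and -0.07.

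Among the regulators Cebpb fell in combination tumours, and Atf4 itself passed in no input comparison. Atf4 had 141, 148 and 128 CPM in combination inputs, 159, 139 and 153 CPM with ORIN1001, 173, 176 and 84.8 CPM with docetaxel and 129, 177 and 151 CPM with vehicle. The combination tumours lay within the range of the vehicle tumours apart from 1 just below it, and the low docetaxel value belongs to the shallow replicate 3, where it rests on 73 counts. Its log2 fold change was -0.08 ± 0.23 (SE) for combination against vehicle (adjusted p = 0.847, edgeR).

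Ddit3, the gene of CHOP, had 5.56, 6.1 and 4.47 CPM in combination inputs, 11.9, 9 and 9.43 CPM with ORIN1001, 8.4, 13.1 and 9.29 CPM with docetaxel and 7.55, 13.7 and 6.31 CPM with vehicle. All 3 combination tumours were below all 9 others. Against vehicle the difference of -0.72 ± 0.31 (log2, SE) did not pass the adjustment (adjusted p = 0.155, edgeR), nor did that of -0.85 ± 0.31 against ORIN1001 (adjusted p = 0.0849). Without docetaxel replicate 3 the second of these passed at -0.84, in a fit where all groups share 1 estimate of the spread.

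Atf3, a stress-induced repressor and activator of the same family, had 20.9, 24.2 and 17.7 CPM in combination inputs, 16.1, 13.2 and 13 CPM with ORIN1001, 21.4, 28.1 and 3.48 CPM with docetaxel and 11.7, 16.9 and 12.1 CPM with vehicle. The 3 combination tumours were above the 3 vehicle tumours, and 2 of 3 docetaxel tumours reached them, while the value of docetaxel replicate 3 rests on 3 counts. The log2 fold change of combination over vehicle was 0.67 ± 0.39 (adjusted p = 0.292, edgeR). It was 0.69 and passed the threshold without docetaxel replicate 3.

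Cebpb, a C/EBP factor that pairs with ATF4 and CHOP, had 426, 448 and 458 CPM in combination inputs, 711, 742 and 811 CPM with ORIN1001, 709, 612 and 635 CPM with docetaxel and 645, 710 and 784 CPM with vehicle. The combination tumours were close to each other and below all 9 others. The fall was -0.64 ± 0.16 against vehicle (log2, adjusted p = 0.0458) and -0.70 ± 0.16 against ORIN1001 (adjusted p = 0.0229, edgeR), while -0.48 ± 0.16 against docetaxel did not pass (adjusted p = 0.0835). The call against vehicle was lost without any 1 of the vehicle, ORIN1001 or combination libraries or docetaxel replicate 2, with values from -0.71 to -0.56 over the 12 fits that leave out 1 library. The call against ORIN1001 was lost without ORIN1001 replicates 2 or 3 (-0.72 and -0.67) or combination replicates 2 or 3 (-0.69 and -0.74).

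Nupr1, a small chromatin protein induced by stress, had 6.33, 4.91 and 5.3 CPM in combination inputs, 5.01, 4.53 and 5.55 CPM with ORIN1001, 7.71, 21.1 and 5.8 CPM with docetaxel and 6.69, 6.42 and 4.34 CPM with vehicle. Docetaxel replicate 2 stood far above the other 11 tumours. The docetaxel difference from vehicle was 1.07 ± 0.39 (log2, adjusted p = 0.431, edgeR), among the 3 smallest p-values of the genes in that comparison. Cebpg, another C/EBP partner, differed by 0.31 ± 0.20 in combination tumours (adjusted p = 0.346).

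Of the 4 genes grouped as feedback genes, none passed in any input comparison. Trib3, a pseudokinase that restrains ATF4 and CHOP, had 23.6, 30.1 and 21.3 CPM in combination inputs, 23.7, 18.5 and 29.6 CPM with ORIN1001, 22.3, 29.2 and 11.6 CPM with docetaxel and 24.8, 29.4 and 21.9 CPM with vehicle. Chac1, which degrades glutathione, had 6, 6.17 and 4.09 CPM in combination inputs, 4.7, 6.98 and 7.07 CPM with ORIN1001, 5.19, 7.62 and 6.97 CPM with docetaxel and 5.05, 7.62 and 5.5 CPM with vehicle. The 4 treatments overlapped for both genes, with combination differences from vehicle of 0.02 ± 0.27 for Trib3 and -0.12 ± 0.28 for Chac1 (log2, SE). Sesn2, an inhibitor of mTORC1 signalling, differed by 0.01 ± 0.23. Ppp1r15a, which encodes GADD34 and brings a phosphatase to eIF2α, had 9.58, 7.36 and 6.37 CPM in combination inputs, below every vehicle tumour (12.8, 14.3 and 10.1 CPM), at -0.62 ± 0.24 and an adjusted p of 0.126 (edgeR).

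**Figure D1:**
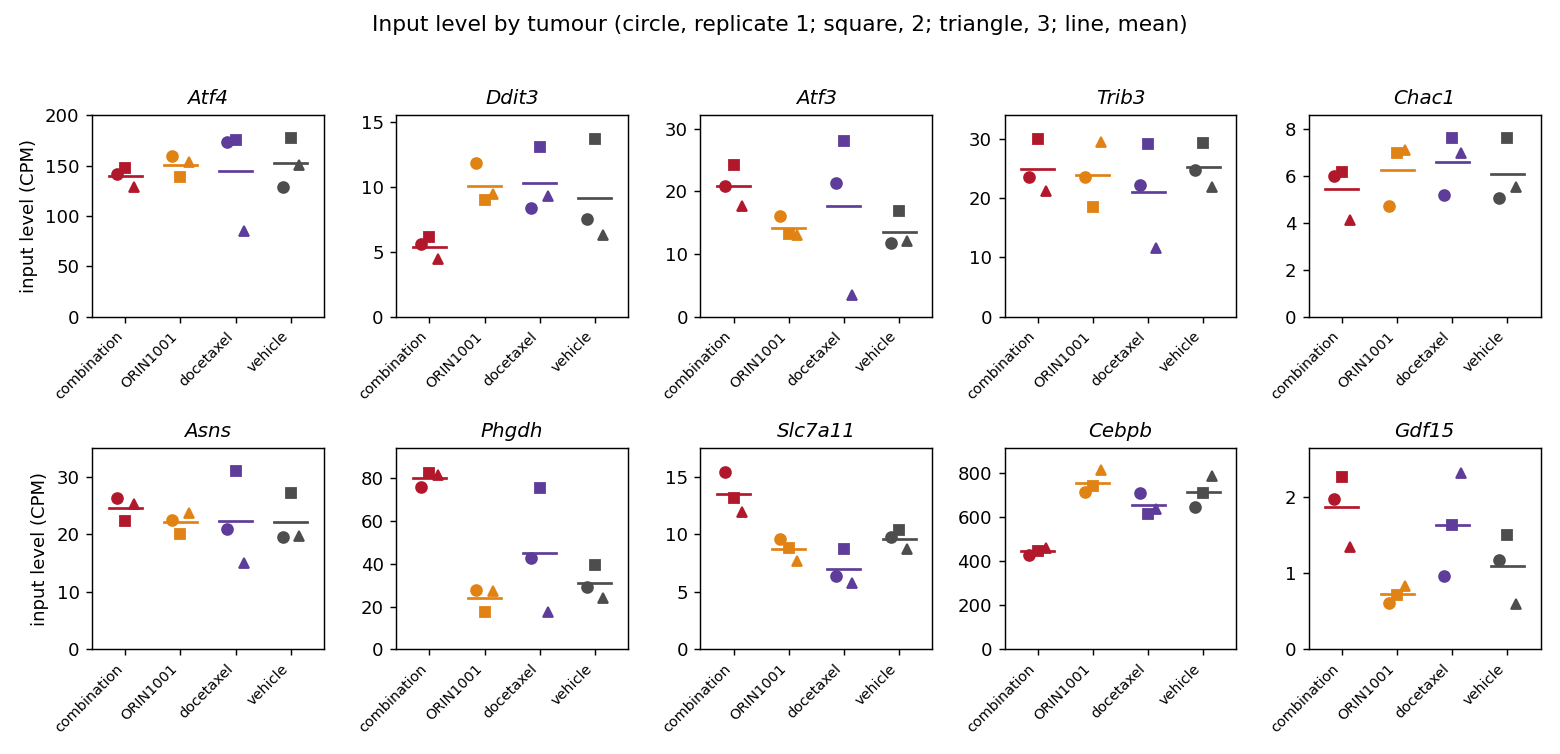
Input level (CPM, vertical axis from 0) of 10 stress response genes in each of 12 tumours, by treatment. Points are tumours and lines are means of 3. Phgdh is higher and Cebpb lower in all 3 combination tumours than in every ORIN1001 and vehicle tumour, and the triangle of docetaxel, the shallow replicate 3, often stands apart.

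The serine and one-carbon enzymes did not move together. Phgdh, the entry enzyme of serine synthesis from glycolysis, had 75.8, 82.5 and 81.6 CPM in combination inputs, 27.6, 17.5 and 27.5 CPM with ORIN1001, 42.9, 75.3 and 17.4 CPM with docetaxel and 29.1, 39.3 and 24.2 CPM with vehicle. Every combination tumour was above every other, and docetaxel replicate 2 came closest. Phgdh rose by 1.42 ± 0.36 against vehicle (log2, adjusted p = 0.0478) and by 1.79 ± 0.36 against ORIN1001 (adjusted p = 0.0191, edgeR), and differed by 0.82 ± 0.36 from docetaxel (adjusted p = 0.186). Over the 12 fits that leave out 1 library the difference from vehicle lay between 1.28 and 1.60, and it passed the threshold in 2 of them, those without docetaxel replicate 2 or 3. The call against ORIN1001 was lost without ORIN1001 replicates 2 or 3 (1.59 and 1.86) or combination replicates 2 or 3 (1.78 and 1.76). A Phgdh pseudogene is annotated in RefSeq, and whether its reads were kept apart is not given in the sources used here. The next enzymes of the same pathway did not pass: Psat1 differed by -0.33 ± 0.26 and Psph by 0.22 ± 0.18 from vehicle. Shmt2 and Mthfd2, mitochondrial enzymes of one-carbon metabolism, differed by -0.43 ± 0.26 and 0.19 ± 0.40.

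Among the enzymes of asparagine and proline synthesis, none passed in an input comparison. Asns, asparagine synthetase and a classical ATF4 target, had 26.3, 22.4 and 25.3 CPM in combination inputs, 22.5, 20.1 and 23.8 CPM with ORIN1001, 20.9, 31.1 and 15.1 CPM with docetaxel and 19.6, 27.2 and 19.7 CPM with vehicle. Combination and vehicle tumours overlapped (0.20 ± 0.23 on the log2 scale, adjusted p = 0.6, edgeR). The proline enzymes Aldh18a1 and Pycr1 differed by -0.37 ± 0.22 and -0.59 ± 0.43 from vehicle, and Pycr1 had no count in docetaxel replicate 3, where 3 counts would be 3.48 CPM.

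The transporters included more genes above 0 than below in combination tumours (5 of 7), of which none passed against vehicle. Slc7a11, the cystine carrier xCT, had 15.5, 13.2 and 12 CPM in combination inputs, 9.63, 8.8 and 7.66 CPM with ORIN1001, 6.37, 8.74 and 5.8 CPM with docetaxel and 9.82, 10.4 and 8.73 CPM with vehicle. All 3 combination tumours were above all 9 others. Slc7a11 rose by 0.98 ± 0.23 against docetaxel (log2, adjusted p = 0.0298, edgeR), while the differences of 0.54 ± 0.22 from vehicle (adjusted p = 0.137) and 0.70 ± 0.22 from ORIN1001 (adjusted p = 0.0544) did not pass. The call against docetaxel was lost without docetaxel replicate 1 (0.85), docetaxel replicate 2 (1.21) or combination replicates 1, 2 or 3 (0.88, 1.01 and 1.06).

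Slc38a2, the neutral amino acid carrier SNAT2, had 234, 237 and 229 CPM in combination inputs, 190, 182 and 183 CPM with ORIN1001, 280, 254 and 273 CPM with docetaxel and 187, 240 and 175 CPM with vehicle. The docetaxel tumours were the highest of all 12. That difference from vehicle, 0.39 ± 0.14 on the log2 scale, did not pass the adjustment (adjusted p = 0.434, edgeR). Slc1a4, a carrier of alanine, serine and cysteine, had 21.4, 22 and 19.8 CPM in combination inputs, 13.4, 14.4 and 12.4 CPM with ORIN1001, 12, 18.6 and 10.4 CPM with docetaxel and 22.4, 17.2 and 12.2 CPM with vehicle. Its vehicle tumours were widely spread and overlapped with every other treatment, and the differences from vehicle were 0.33 ± 0.25 for the combination and -0.38 ± 0.25 for ORIN1001. Slc3a2, the heavy chain that Slc7a11 and Slc7a5 both need, went the other way from Slc7a11 in value, at -0.62 ± 0.26 against vehicle (adjusted p = 0.143), with 120, 79.6 and 107 CPM in combination inputs and 140, 162 and 185 CPM in vehicle inputs. Slc7a5, Slc7a1 and Slc1a5 differed by -0.20 ± 0.25, 0.38 ± 0.22 and 0.33 ± 0.21.

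Gdf15, a secreted stress cytokine, was at low levels, with 1.98, 2.27 and 1.35 CPM in combination inputs, 0.608, 0.717 and 0.835 CPM with ORIN1001, 0.964, 1.63 and 2.32 CPM with docetaxel and 1.18, 1.5 and 0.596 CPM with vehicle. Combination tumours were above all ORIN1001 tumours and overlapped with vehicle, and the docetaxel value of 2.32 CPM rests on 2 counts. Gdf15 rose by 1.43 ± 0.41 against ORIN1001 (log2, adjusted p = 0.0426, edgeR), and this call held in 3 of the 12 fits that leave out 1 library, those without vehicle replicate 3 or docetaxel replicate 1 or 3, with values of 1.29 to 1.61 over all 12. Vldlr, a lipoprotein receptor, had 125, 88.5 and 81.4 CPM in combination inputs and 228, 171 and 228 CPM in vehicle inputs, with no overlap, at -1.05 ± 0.32 and an adjusted p of 0.0698. It passed at -1.03 without docetaxel replicate 3. Fgf21, a hormone of starvation and stress, had at most 8 counts in an input library, and its highest input level was 0.196 CPM.

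The 8 tRNA synthetases, which charge tRNAs with amino acids, were below 0 in 7 cases in combination against vehicle, and none passed in an input comparison. Their log2 fold changes ran from -0.46 (Sars) to 0.30 (Cars). Eprs, the synthetase for glutamate and proline, had 191, 170 and 162 CPM in combination inputs, 213, 157 and 170 CPM with ORIN1001, 197, 235 and 178 CPM with docetaxel and 198, 218 and 231 CPM with vehicle. Combination tumours were below vehicle tumours, and ORIN1001 tumours overlapped with both. The Eprs differences were -0.26 ± 0.17 for the combination and -0.28 ± 0.17 for ORIN1001 (log2, SE), the smallest p (0.124, 1 after adjustment, edgeR) of these genes under ORIN1001.

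**Figure D2:**
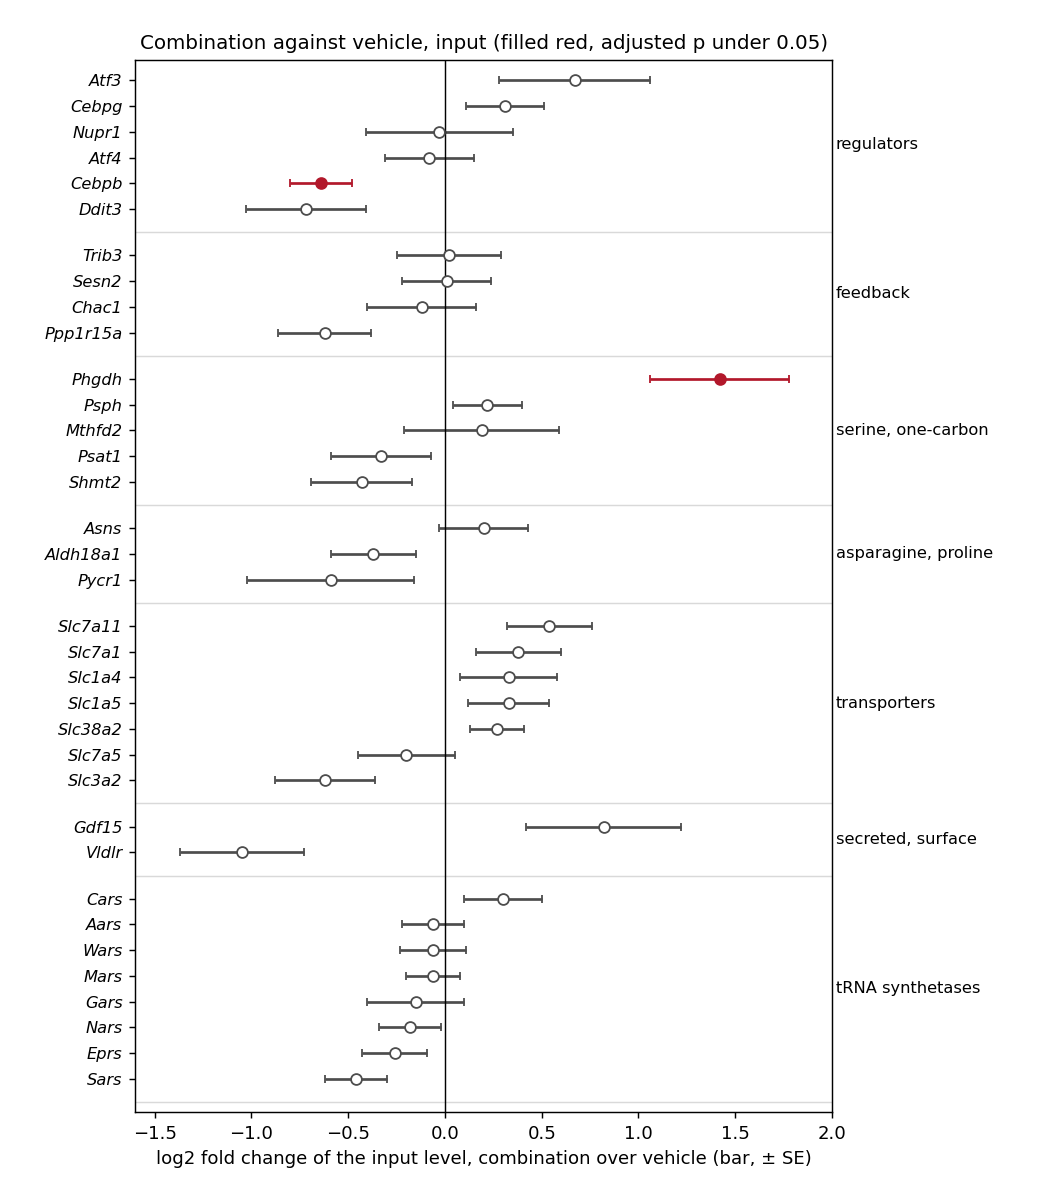
Log2 fold change of the input level (horizontal axis) of 35 genes, combination over vehicle, grouped by role. Circles are edgeR estimates and bars are ± 1 SE, and red marks an adjusted p under 0.05. Phgdh at 1.42 and Cebpb at -0.64 are the 2 filled points, and Atf4, Trib3, Chac1 and Asns lie within 0.20 of 0.

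Counted by separation alone, on the scale of the fit to the inputs, 15 of the 35 genes had combination tumours that did not overlap with vehicle tumours, 6 higher and 9 lower. They include Slc38a2, whose groups overlap on the scale of all 24 libraries used for the values above. Over all genes that share was 47.5%, so the 15 are near the background. ORIN1001 and vehicle tumours were apart for 0 of the 35 genes (12.5% of all genes), and docetaxel and vehicle tumours for 4 (15%), Slc38a2 higher and Slc7a11, Pycr1 and Wars lower. Of these, Slc7a11 overlaps narrowly on the scale of all 24 libraries, and Pycr1 had no count in the shallow docetaxel replicate 3. Combination tumours were apart from docetaxel tumours for 8 (25.3%) and from ORIN1001 tumours for 16 (53.4%).

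The input comparisons between treatments share samples and are given side by side. Combination against docetaxel called 1 gene, Slc7a11 (background 7.43%), and combination against ORIN1001 called 3, Phgdh, Cebpb and Gdf15 (background 12.6%, of which 7.2% higher and 5.43% lower). The interaction, which asks whether the effects of both drugs add up on the log2 scale, called 0 of the 35 genes and 0% of all genes. At an unadjusted p under 0.05 it held 6 of the 35 genes and 3134 of all (17.6%), and Slc7a11 had the smallest p of the 35 (1.15 ± 0.31 on the log2 scale, adjusted p = 0.108, edgeR). For ORIN1001 against vehicle, 0 of the 35 genes and 787 of all (4.43%) had an unadjusted p under 0.05, and DESeq2 called 0 and 34. For docetaxel against vehicle these were 2 genes, Nupr1 and Slc38a2, and 1857 of all (10.5%), and DESeq2 called 0 and 131.

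Without docetaxel replicate 3, the shallow library, more calls were made with fold changes that hardly moved. Combination against vehicle then called 6 of the 35 genes, against 28% of all genes: Phgdh (1.44), Atf3 (0.69) and Slc7a11 (0.55) were higher and Vldlr (-1.03), Cebpb (-0.62) and Sars (-0.45) lower on the log2 scale. Combination against docetaxel called 5 (23.8% of all), combination against ORIN1001 called 12, 8 higher and 4 lower (35.2% of all), and the interaction called 1, Slc7a11 (8.27% of all).

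Another 49 genes of the pathway, listed from general knowledge of it, were all tested: 14 of the eIF2α kinase and phosphatase module, 23 reported targets and 12 other tRNA synthetases. In combination against vehicle 0 rose and 1 fell, Eif4ebp1, a translation repressor (-1.13 ± 0.28 on the log2 scale, adjusted p = 0.0465, edgeR), where the background was 4.77%, with a list median of -0.28, against -0.03 over all genes. Combination against ORIN1001 called 5 of the 49 (background 12.6%), with Vars higher (0.49) and Eif4ebp1 (-1.38), Ero1l (-0.95), Got1 (-0.83) and Sqstm1 (-0.74) lower, and combination against docetaxel called 1 (background 7.43%), Pck2 (-1.18). None passed under ORIN1001 alone, where Bcat1 (2.10) and Atf5 (0.35) had the smallest p-values, under docetaxel alone, where Got1 (-0.60) and Eif4ebp1 (-0.64) did, or in the interaction, where Pck2 (-1.28) and Atf5 (-0.56) did.

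Markers of other cells differed between the groups of these comparisons. Of 9 neutrophil markers tested, S100a8, S100a9 and Cd177 fell in combination tumours against vehicle (-3.53, -3.00 and -3.91 on the log2 scale). Ngp (-4.29), Retnlg (-3.15), Mmp8 (-2.68) and Cxcr2 (-1.04) were also below 0 and did not pass (adjusted p of 0.056 to 0.175, edgeR). Ltf was on the other side, at 1.85 (adjusted p = 0.0736, edgeR), with 49 to 96.1 CPM in combination inputs and 18.9 to 26.4 CPM in vehicle inputs, and Csf3r was at -0.07. The summed level of the list was 68.2 to 126.6 CPM in combination inputs and 74.61 to 111.7 CPM in vehicle inputs. Ltf alone made up most of the sum in combination inputs. T cell markers summed to 27.24 to 41.5 CPM in combination inputs and 14.8 to 17.49 CPM in vehicle inputs, and fibroblast markers to 312.3 to 632.4 CPM in combination inputs and 253.2 to 269.1 CPM in vehicle inputs. The fibroblast markers did not move together. Fap rose (1.29 on the log2 scale, adjusted p = 0.0424, edgeR). Pdgfra (-1.22, adjusted p = 0.0848), Dcn (-0.14) and Lum (-0.12) were below 0 and the others above 0. Macrophage markers summed to 446.1 to 672.7 CPM in combination inputs and 450.9 to 555.6 CPM in vehicle inputs. None of them passed, with Cd68 (-0.99), Cd14 (-0.96) and Mrc1 (-0.35) below 0 and the others above 0, up to 0.94 (Adgre1). Endothelial markers summed to 53.67 to 85.18 CPM in combination inputs and 43.38 to 84.65 CPM in vehicle inputs, and adipocyte markers to 10.65 to 13.46 CPM in combination inputs and 11.42 to 16.07 CPM in vehicle inputs. In the inputs of the single drugs, endothelial markers summed to 88.08 to 165.5 CPM with ORIN1001 and 82.87 to 101 CPM with docetaxel, fibroblast markers to 281.3 to 962.5 CPM with ORIN1001 and 194.9 to 2508 CPM with docetaxel, and adipocyte markers to 14.44 to 30.52 CPM with ORIN1001 and 9.007 to 384.3 CPM with docetaxel. T cell markers summed to 10.89 to 19.56 CPM with ORIN1001 and 8.127 to 14.76 CPM with docetaxel. The adipocyte sum of 384.3 CPM is that of docetaxel replicate 3, the shallow library, in which depth and cell content cannot be told apart. No marker was at 0 in every input library. Their part in the levels of the stress response genes was not tested.

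The J2 libraries ask a different question, whether transcripts of these genes were over- or under-represented in the RNA bound by the antibody. A ratio of J2 to input is relative to the other genes of the same tumour. More of the 35 genes tested were lower than higher in J2. On average over the 4 treatments 21 passed an adjusted p of 0.05 in a fit with the tumour as a block, 4 higher and 17 lower in J2, against 55% of all 17338 genes (25% higher and 30% lower). The median log2 ratio was -0.25, against -0.05 over all genes. Lower in J2 were 5 of 6 regulators and 5 of 8 tRNA synthetases, and higher were Slc7a11, Vldlr, Psph and Slc7a5. Of the 21 calls, 17 held in all 12 fits that leave out 1 tumour with both its libraries, and those of Mthfd2, Pycr1, Slc3a2 and Slc7a5 did not.

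Slc7a11 stood at the upper end, and its place depended on the treatment. It had 10.6, 6.14 and 5.5 CPM in combination J2 libraries, 17.5, 43.2 and 20 CPM with ORIN1001, 20, 39.1 and 7.14 CPM with docetaxel and 32.2, 34.7 and 26.9 CPM with vehicle. Set against the inputs given above, J2 was lower than input in all 3 combination tumours and higher in all 9 others. The log2 ratio was -0.93 ± 0.31 in combination tumours (adjusted p = 0.0301), 1.51 ± 0.27 with ORIN1001 (adjusted p = 0.00161), 1.73 ± 0.32 with docetaxel (adjusted p = 0.00391) and 1.69 ± 0.27 with vehicle (adjusted p = 0.000424, edgeR). The fall in combination tumours did not pass without any 1 of the vehicle tumours, ORIN1001 replicate 3 or combination replicates 2 or 3 (-0.90 to -0.76), and the rise with docetaxel did not without docetaxel replicate 2 (1.32).

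Vldlr had 171, 143 and 129 CPM in combination J2 libraries, 458, 670 and 321 CPM with ORIN1001, 259, 384 and 137 CPM with docetaxel and 624, 461 and 604 CPM with vehicle. Its inputs were 252, 211 and 155 CPM with ORIN1001 and 105, 145 and 257 CPM with docetaxel, besides those of combination and vehicle above. J2 was higher than input in 11 of 12 tumours, the exception being docetaxel replicate 3. The average log2 ratio was 0.97 ± 0.16 (adjusted p = 0.000174, edgeR) and 1.18 without that tumour. Psph, the last enzyme of serine synthesis, had 45.7, 36 and 61.5 CPM in combination J2 libraries and 30.7, 34.1 and 33.6 CPM in their inputs. With ORIN1001 it had 34.2, 38.6 and 30.8 CPM in J2 and 27.8, 31.7 and 28.1 CPM in input, and with docetaxel 48, 38.1 and 37.6 CPM in J2 and 38.1, 36.8 and 22.1 CPM in input. With vehicle it had 29.8, 34.6 and 39.8 CPM in J2 and 26.9, 33.9 and 26.5 CPM in input. It was higher in J2 in all 12 tumours, by 0.34 ± 0.10 on average (log2, adjusted p = 0.00809).

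At the lower end, Shmt2 had 30.8, 41.2 and 32.4 CPM in combination J2 libraries and 63.6, 37 and 58.3 CPM in their inputs. With ORIN1001 it had 32.2, 24.3 and 41.5 CPM in J2 and 67.7, 64 and 72.8 CPM in input, with docetaxel 29.6, 37 and 31.2 CPM in J2 and 72.2, 87.2 and 36 CPM in input, and with vehicle 25.4, 34.9 and 20.4 CPM in J2 and 65, 81.9 and 74 CPM in input. J2 was lower than input in 11 of 12 tumours, combination replicate 2 being the exception. The average log2 ratio was -1.03 ± 0.12 (adjusted p = 9.52e-06, edgeR). Sars, the serine tRNA synthetase, had 63.8, 106 and 81.2 CPM in combination J2 libraries and 126, 99.4 and 93.8 CPM in their inputs. With ORIN1001 it had 94, 52.8 and 75.5 CPM in J2 and 156, 144 and 151 CPM in input, with docetaxel 69.6, 58.1 and 108 CPM in J2 and 169, 174 and 136 CPM in input, and with vehicle 69.4, 87.8 and 56 CPM in J2 and 135, 181 and 139 CPM in input. It too was lower in J2 in 11 of 12 tumours, with an average log2 ratio of -0.90 ± 0.12 (adjusted p = 2.62e-05).

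**Figure D3:**
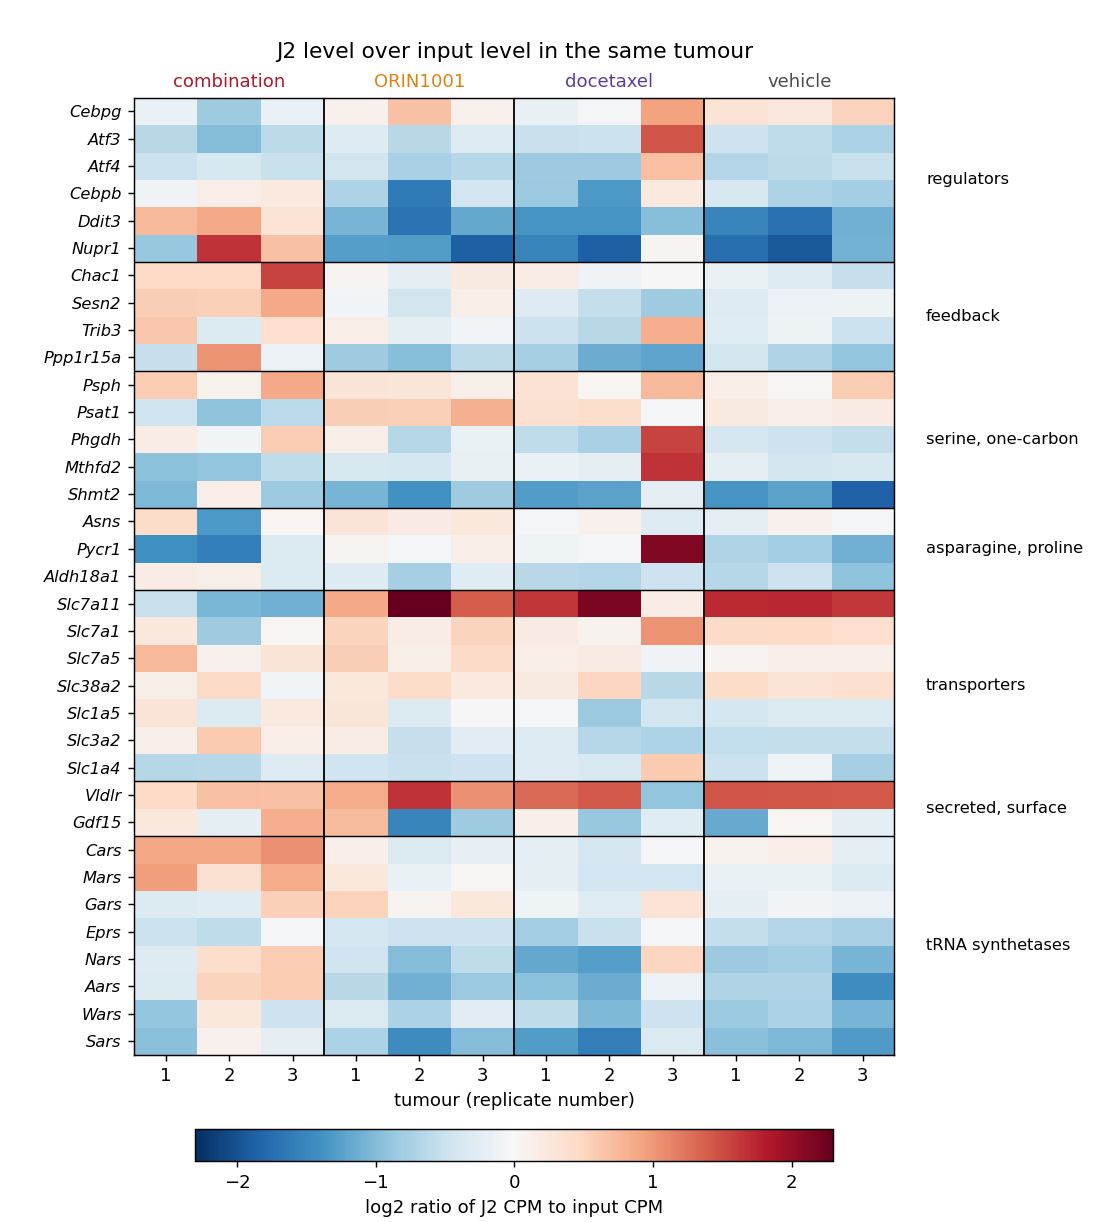
Log2 ratio of J2 CPM to input CPM (colour) for 35 genes (rows, grouped by role) in each of 12 tumours (columns, by treatment). Slc7a11 is blue in the 3 combination tumours and red in the other 9, and Ddit3 is red in the 3 combination tumours and blue in the other 9. Docetaxel replicate 3, whose input is shallow and high in adipocyte markers, differs from replicates 1 and 2 for Atf3, Phgdh, Mthfd2, Pycr1 and Vldlr.

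Within each treatment the J2 ratio was tested against 0. Counts of genes past the threshold were 9 in combination tumours (5 higher and 4 lower, background 36.8%, or 16.3% and 20.5%), 10 with ORIN1001 (3 and 7, background 28.1%, or 13.2% and 14.9%), 10 with docetaxel (1 and 9, background 23.9%, or 12% and 12%) and 15 with vehicle (2 and 13, background 41.4%, or 20.2% and 21.1%). The median ratio of the 35 genes was 0.10 in combination tumours, -0.20 with ORIN1001, -0.27 with docetaxel and -0.45 with vehicle, where all genes had -0.13, -0.06, -0.02 and 0. Higher in J2 in combination tumours were Cars (0.95), Chac1 (0.87), Mars (0.73), Sesn2 (0.67) and Psph (0.52), and lower were Slc7a11 (-0.93), Mthfd2 (-0.81), Atf3 (-0.76) and Psat1 (-0.66). Chac1 was at 0.47 and no longer passed without combination replicate 3.

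The change of the J2 ratio between combination and vehicle tumours was itself tested, and 11 of the 35 genes passed, 9 with a higher and 2 with a lower ratio, against 29.9% of all genes (12.7% higher and 17.1% lower). The larger changes were those of Slc7a11 (-2.63 ± 0.41, adjusted p = 0.00121), Nupr1 (2.24 ± 0.58, adjusted p = 0.0113) and Ddit3 (2.06 ± 0.35, adjusted p = 0.0015, edgeR). Over the fits that leave out 1 tumour the Slc7a11 change was -2.83 to -2.47 and that of Ddit3 1.92 to 2.27, and both passed in all 12. Nupr1 was at 1.68 and did not pass without combination replicate 2. The ribosomal RNA share of the combination J2 libraries given above moves with this comparison. With counts on ribosomal RNA loci left out, 11 of the 35 genes were called, as many as with them, and the share of all genes in that fit is not given here. Sesn2 (0.86 ± 0.27) lost its call without vehicle replicates 1, 2 or 3 or combination replicate 3 (0.76 to 0.93), and Psat1 (-0.84 ± 0.23) without vehicle replicates 1 or 3 or combination replicate 3 (-0.84 to -0.79).

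Ddit3 had 9.04, 11 and 5.5 CPM in combination J2 libraries, 5.63, 2.75 and 4.15 CPM with ORIN1001, 3.26, 5.14 and 4.94 CPM with docetaxel and 2.62, 4.13 and 2.89 CPM with vehicle. Its J2 level was above its input level in the 3 combination tumours and below it in the other 9. The fitted log2 ratio was 0.60 ± 0.25 in combination tumours, which did not pass (adjusted p = 0.079), -1.31 with ORIN1001, -1.27 with docetaxel and -1.47 ± 0.24 with vehicle (adjusted p = 0.000492, edgeR). Nupr1 had 3.19, 15.3 and 8.41 CPM in combination J2 libraries, 2.04, 1.83 and 1.48 CPM with ORIN1001, 2.65, 5.7 and 6.59 CPM with docetaxel and 1.98, 1.65 and 2 CPM with vehicle. The combination tumours spread widely, 1 of them below its input, and all 3 were above the vehicle tumours. The 3.19 CPM of combination replicate 1 lies near the floor of that library, where 3 counts are worth 1.6 CPM.

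**Figure D4:**
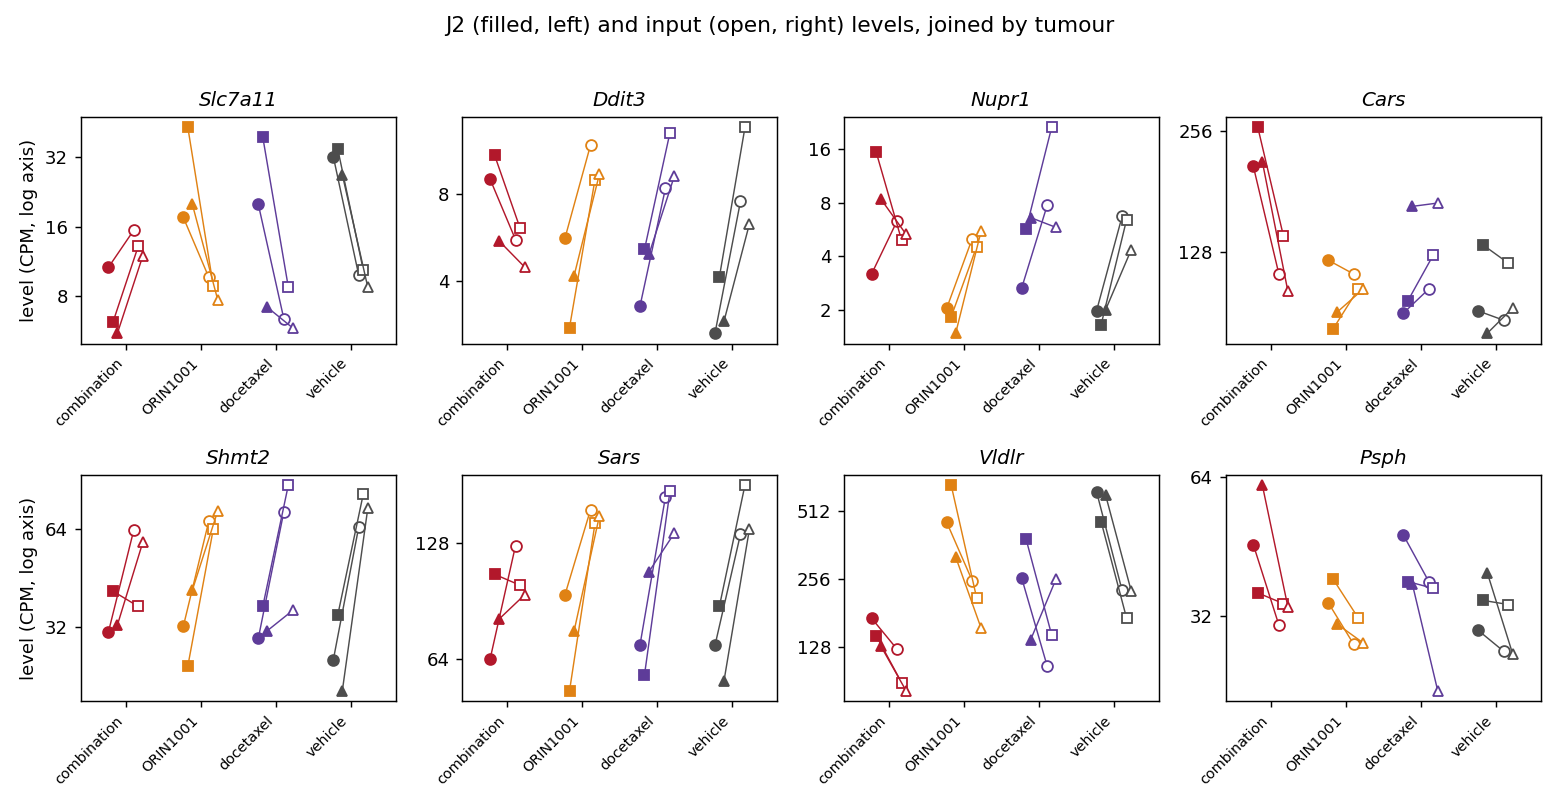
J2 level (filled, left) and input level (open, right) in CPM on a log2 axis for 8 genes, with a line joining both libraries of a tumour. For Slc7a11 the lines run up from J2 to input in the 3 combination tumours and down in the other 9, and for Ddit3 they run down in the combination tumours and up in the others.

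The other regulators and classical targets showed smaller or no changes of the ratio. Atf4 had 100, 115 and 89.3 CPM in combination J2 libraries, 118, 83.4 and 97.3 CPM with ORIN1001, 97.4, 98.2 and 138 CPM with docetaxel and 80.5, 116 and 106 CPM with vehicle. It was below its input in 11 of 12 tumours, the exception being docetaxel replicate 3, and the change of ratio in combination tumours was 0.14 ± 0.33. Atf3 had 13.3, 11.8 and 11.5 CPM in combination J2 libraries, 13.2, 8.46 and 10.6 CPM with ORIN1001, 15, 19.8 and 11 CPM with docetaxel and 8.36, 11.2 and 7.3 CPM with vehicle, with a change of -0.16 ± 0.36.

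Cebpb had 403, 498 and 532 CPM in combination J2 libraries, 435, 239 and 604 CPM with ORIN1001, 391, 246 and 745 CPM with docetaxel and 504, 435 and 454 CPM with vehicle. The fall seen in the combination inputs was not visible in J2, where the combination tumours lay within the range of the other 9, and the change of ratio was 0.71 ± 0.39 (adjusted p = 0.177, edgeR). Trib3 had 36.2, 24.1 and 27.8 CPM in combination J2 libraries, 26.3, 15.8 and 28.4 CPM with ORIN1001, 15.8, 18.8 and 21.7 CPM with docetaxel and 20.4, 27 and 15.5 CPM with vehicle (change 0.54 ± 0.34). Chac1 had 7.98, 8.33 and 12 CPM in combination J2 libraries, 4.86, 6.06 and 8.19 CPM with ORIN1001, 5.86, 7.17 and 7.42 CPM with docetaxel and 4.54, 6.2 and 3.77 CPM with vehicle. All 3 combination tumours were above the vehicle tumours, and the ratio rose by 1.20 ± 0.37 (adjusted p = 0.0258), though not past the threshold without combination replicate 3 (0.78) or vehicle replicates 1, 2 or 3 (1.28, 1.20 and 1.13).

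Asns had 35.1, 8.77 and 26.1 CPM in combination J2 libraries, 27.8, 22.9 and 28.1 CPM with ORIN1001, 20.7, 33 and 12.8 CPM with docetaxel and 16.9, 29.1 and 19.2 CPM with vehicle. Combination replicate 2 was the lowest of the 12, and the change of ratio was -0.15 ± 0.34 (log2, SE). Phgdh had 85.1, 78.5 and 122 CPM in combination J2 libraries, 30.2, 11.2 and 24.7 CPM with ORIN1001, 28.7, 45.2 and 52.5 CPM with docetaxel and 22.2, 28.4 and 16.5 CPM with vehicle. As in the inputs, every combination tumour was above the other 9, and the ratio itself changed by 0.70 ± 0.41, which did not pass (adjusted p = 0.213, edgeR). Gdf15 had 2.13, 1.75 and 2.4 CPM in combination J2 libraries, 0.986, 0.229 and 0.455 CPM with ORIN1001, 1.05, 0.865 and 2.33 CPM with docetaxel and 0.496, 1.52 and 0.481 CPM with vehicle.

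Slc38a2 had 256, 320 and 219 CPM in combination J2 libraries, 225, 243 and 214 CPM with ORIN1001, 322, 357 and 177 CPM with docetaxel and 250, 300 and 225 CPM with vehicle. Slc1a4 had 13.3, 14 and 16 CPM in combination J2 libraries, 9.79, 10.1 and 8.87 CPM with ORIN1001, 9.78, 14.6 and 16.8 CPM with docetaxel and 15.9, 16 and 7.14 CPM with vehicle. Neither carrier's ratio passed, at -0.20 ± 0.28 and -0.08 ± 0.31 in combination against vehicle (adjusted p = 0.619 and 0.896, edgeR). Slc3a2 rose by 0.84 ± 0.25, as its J2 level of 130, 120 and 119 CPM in combination tumours was above its input in each, while it was below input in the 3 vehicle tumours (94, 111 and 126 CPM). This call was lost without vehicle replicates 1, 2 or 3 (0.83, 0.84 and 0.88) or combination replicate 2 (0.67).

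All 8 tRNA synthetases had a higher J2 ratio in combination than in vehicle tumours, and 4 passed: Aars (1.21 ± 0.33), Nars (1.13 ± 0.39), Cars (0.94 ± 0.22) and Mars (0.94 ± 0.23, log2 and SE). Cars, for cysteine, had 209, 261 and 215 CPM in combination J2 libraries, 122, 82.5 and 91 CPM with ORIN1001, 90.4, 96.9 and 166 CPM with docetaxel and 91.5, 134 and 80.6 CPM with vehicle. Each combination value was above all 9 others, while the Cars inputs overlapped (113, 141 and 103 CPM in combination tumours and 86.8, 120 and 93.1 CPM in vehicle tumours). Eprs, with the smallest change but that of Gars, had 136, 114 and 157 CPM in combination J2 libraries, 161, 112 and 122 CPM with ORIN1001, 113, 165 and 175 CPM with docetaxel and 135, 137 and 137 CPM with vehicle (0.29 ± 0.25). Cars and Mars passed in all 12 fits that leave out 1 tumour, Aars in 10, not without vehicle replicate 3 (1.01) or combination replicate 3 (1.07), and Nars in 6 (0.97 to 1.37). Of the 12 other tRNA synthetases, 5 had a higher and 0 a lower ratio past the threshold in the same comparison, where all genes had 12.7% higher and 17.1% lower.

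ORIN1001 alone and docetaxel alone changed the J2 ratio of 0 of the 35 genes against vehicle and of 0% of all genes (edgeR). At an unadjusted p under 0.05 there was 1 of the 35 genes in each, Pycr1, chosen for naming after its values were seen, and 605 and 730 of all genes (3.49% and 4.21%). DESeq2 called 0 of the 35 genes in both. With sample weights, limma-voom called 7 for ORIN1001, near its share of all genes given below, and 0 for docetaxel.

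Longer genes tended to have higher J2 ratios outside the combination tumours. Over the 35 genes, the Spearman correlation of the log2 ratio with the length of the gene in RefSeq, taken as its full extent with introns, was -0.12 in combination tumours, 0.40 with ORIN1001, 0.36 with docetaxel and 0.37 with vehicle, and over 15107 genes it was 0.01, 0.27, 0.28 and 0.29 in the same order. These are descriptions across genes, which share libraries and are not replicates. By length, the average ratio had a median of -0.51 in 7 genes under 5 kb, -0.29 in 6 of 5 to 15 kb, -0.18 in 17 of 15 to 40 kb and 0.15 in 5 over 40 kb, where all genes had -0.43, -0.21, -0.06 and 0.11. Slc7a11, the longest by full extent at 134 kb, part of which lies upstream of the promoter window shown above, had the highest ratio with vehicle, and Nupr1, at 2.23 kb, the lowest.

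**Figure D5:**
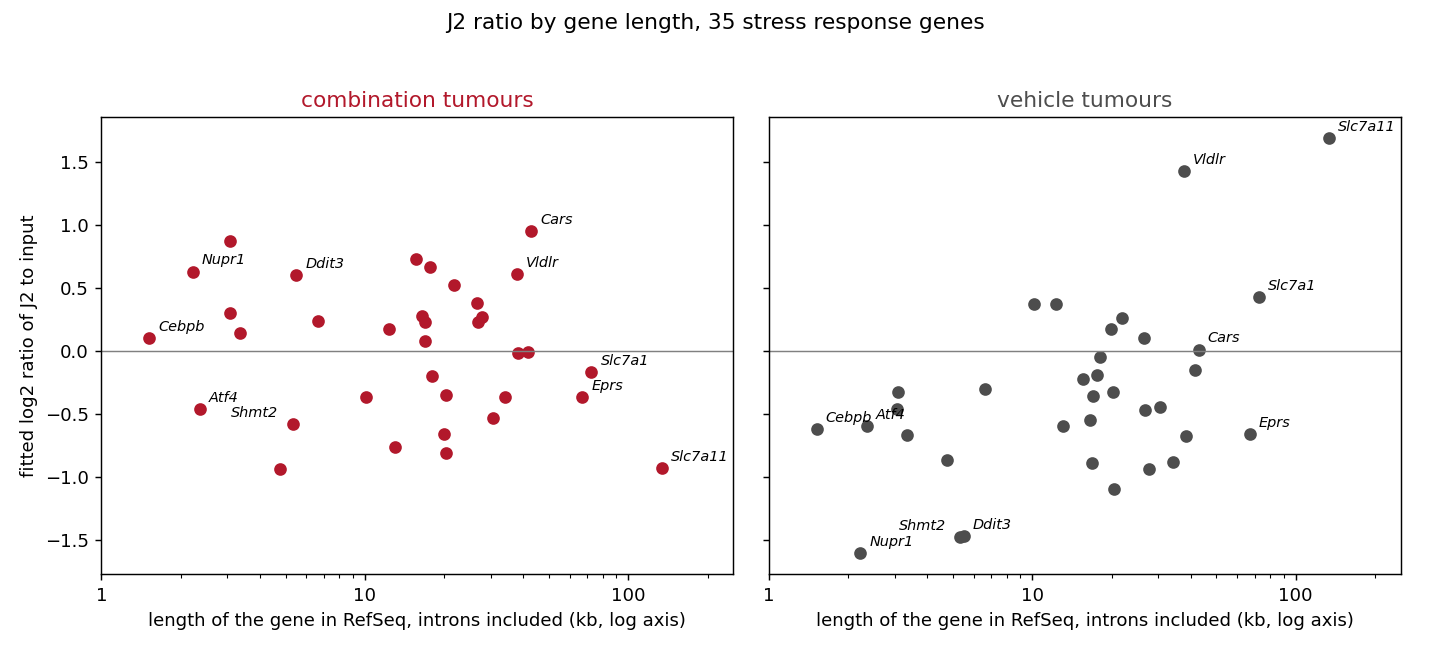
Fitted log2 ratio of J2 to input (vertical axis) against gene length (kb, log axis) for 35 genes, combination tumours left and vehicle tumours right. In combination tumours Nupr1 (0.63) and Ddit3 (0.60), which are short, lie above 0 and Slc7a11 (-0.93), the longest, below, while with vehicle they are at -1.61, -1.47 and 1.69.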

How the data were processed

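RNA of 12 tumours was measured in 24 libraries, an input and a J2 pull-down of each, prepared with a stranded total RNA kit with ribosomal depletion, per the labels' protocols. The deposited values are whole-number counts per gene in 1 table. The submitters' processing notes name fastp 0.23.2, STAR 2.7.3a, featureCounts 2.0.3 and build mm10. The strand setting and the handling of reads with several matches are not stated there, so genes with near-identical copies and overlapping genes are uncertain. The full extents of Ddit3 and Mars overlap at their ends on chromosome 10, and the part of this in their J2 ratios was not tested.

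The counts were tested with edgeR 4.0.16 (quasi-likelihood, TMM scaling, Benjamini-Hochberg adjustment over all genes tested, threshold 0.05) in R 4.3.3, after filterByExpr with a minimum count of 10 and a minimum total of 15. Inputs were fitted by treatment, all 4 together. J2 was set against input with the tumour as a block, and tests of combination against vehicle then compare the ratios. CPM values use TMM over the 24 libraries, and printed ratios of single tumours add 0.5. A floor is 3 counts. Alternatives were DESeq2 1.42.0, limma 3.58.1 voom with sample weights, RLE size factors, no filter, no ribosomal RNA loci, other block terms, and each tumour left out. Leaving out a tumour took 1 library from the input fits and both of its libraries from the J2 fits. The script for the tests was checked on simulated data.

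J2 and input of a tumour pair by design, and their deviations correlated over 0.1 in 10 of 12 tumours (0.09 to 0.72). Equal replicate numbers in different treatments did not pair the inputs (over 0.1 in 1 of 18 pairs, -0.23 to 0.11). No 2 replicates agreed within sampling noise (chi-square per degree of freedom of at least 11.6 over 24 pairs). Nothing says beyond the tumour numbers how independent the replicates are, and p-values measure the spread between these tumours.

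Values in every library are given for Atf4, Ddit3, Atf3, Trib3, Chac1 and Asns, for genes past the threshold in an input comparison, for the 3 smallest p-values against vehicle where none passed, and for the 3 highest and 3 lowest called average J2 ratios. Cars and Slc3a2 were added after their values were seen. The genes, lists and this rule were chosen with earlier results of these data known.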

Additional observations from a re-analysis of the deposited data

Results flagged for a closer look

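The change of the J2 to input ratio between combination and vehicle tumours differed from 0 by a test of the difference itself (edgeR, adjusted over all genes) for 11 of the 35 genes, near the share of all genes (29.9% of 17338). On the log2 scale the ratio was higher in combination tumours for Nupr1 (2.24), Ddit3 (2.06), Aars (1.21), Chac1 (1.20), Nars (1.13), Cars (0.94), Mars (0.94), Sesn2 (0.86) and Slc3a2 (0.84), and lower for Psat1 (-0.84) and Slc7a11 (-2.63). Ribosomal RNA loci held 22.9 to 57.2% of the counts of the combination J2 libraries, against 4.24 to 6.32% with vehicle, and their part in these changes was not tested beyond leaving those loci out.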

How the results depend on the processing

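Counts of the 35 genes called moved with the method, and no called value changed sign under any alternative run. In the inputs, combination against vehicle, docetaxel and ORIN1001 and the interaction called 4, 4, 7 and 2 genes with DESeq2 and 11, 9, 14 and 7 with limma-voom, against 2, 1, 3 and 0 in the edgeR fit. Of all genes the same methods called 14%, 12.6%, 19.5% and 4.45% (DESeq2) and 38.8%, 33.6%, 51.5% and 22.4% (limma-voom). With the replicate block the first 3 called 0, 0 and 1 (0.208%, 0% and 4.04% of all genes), over numbers that do not pair these tumours. RLE size factors called 2 against docetaxel (7.57% of all genes), and no filter called 1 against vehicle (648 of all genes) and 0 against docetaxel (1095). For J2 against input, DESeq2 called 16 with ORIN1001 (34.3% of all genes), and limma-voom called 15 with the combination (48.3%), 23 with ORIN1001 (59.6%), 21 with docetaxel (49.9%), 26 with vehicle (72.1%), 22 for the change of combination against vehicle (49.1%) and 7 for that of ORIN1001 (21.3%). With no replicate block, that is without the tumour in the model, 2 were called in combination tumours (25%), 6 with docetaxel (12.6%) and 6 for the change of combination against vehicle (16.9%). With each tumour left out in turn, input calls ranged from 0 to 6 (combination against vehicle), 0 to 5 (against docetaxel), 0 to 12 (against ORIN1001) and 0 to 1 (interaction), and 0 to 0 for each single drug. Calls over all genes ranged from 0 to 5180, 0 to 4397, 0 to 6507, 0 to 1527 and 0 to 1 in the same order. J2 calls ranged from 17 to 24 on average, 3 to 16 in combination tumours, 3 to 17 with ORIN1001, 0 to 17 with docetaxel, 7 to 22 with vehicle and 5 to 17 for the change in combination tumours, and 0 to 0 for those of single drugs, with 8422 to 11017, 3248 to 8223, 2108 to 7175, 496 to 7117, 3670 to 9228 and 3229 to 7375 of all genes in the first 6 and at most 10 in the others. The highest count in each came without docetaxel replicate 3. Without the 3 combination tumours, chosen after seeing the data, 22 were called on average, 28 when docetaxel replicate 3 was left out too. The full fit called 55% of all genes on average. The share of all genes in these smaller fits is not given here, so their counts are not particular to the stress response genes. The cause of these differences was not tested. Depth limits Fgf21, Gdf15, Pycr1 and Atf3 in the input of docetaxel replicate 3, where 3 counts are 3.48 CPM. Slc7a11 and Nupr1 lie near that floor there. In J2 it limits Gdf15 in combination replicates 1 and 2, where 3 counts are 1.6 and 1.32 CPM, and Nupr1 in replicate 1. Counting floors cover counting error only.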
